A study of Mus musculus with 6 samples.

Results

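The genes described here encode the proteins of the cytosolic ribosome, measured in neural stem cells (NSCs) that carry 1 functional copy of Setd5 and in wild-type (WT) NSCs. They were taken by name from the deposited expression table: every row whose symbol starts with Rpl or Rps followed by digits, with an optional a, x or l suffix, together with Rplp0, Rplp1, Rplp2 and Rpsa, and without the RPS6 kinases and the rows named as pseudogenes. This rule found 82 of the 53110 rows, 32 of them for the small (40S) and 50 for the large (60S) subunit. Of these, 77 reached a mean of 10 normalized counts over all samples and entered the comparison.

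The cytosolic ribosome makes the cell's proteins outside mitochondria. Its small subunit reads the messenger RNA, its large subunit joins amino acids, and each ribosomal protein is present in about a single copy beside the ribosomal RNAs. The genes are transcribed at high rates in growing cells, their messages often start with a C followed by a run of pyrimidines (the 5′ TOP motif, through which growth signals control translation), and mammalian genomes hold many processed pseudogenes of them, intronless copies of the spliced messages.

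The cells were primary cortical NSCs of the mouse embryo, grown on Matrigel in a neural medium with bFGF and EGF at 21% oxygen, and Setd5 had been mutated with CRISPR-Cas9. RNA-seq gave 3 samples labelled WT and 3 labelled Setd5+/-, and the column names give 1 clone for the mutant samples and a single index and lane per genotype. Among counts of 1 to 20, 70.9% to 73.5% were even in each sample, as when both reads of a pair are counted, and between same-genotype samples the variance was 1.95 times the mean in WT and 1.94 times in Setd5+/-. Counts were therefore divided by 2 to compare samples. On that scale, chosen after the data had been seen, samples of the same genotype differed by no more than sampling noise, with a chi-square per degree of freedom of 0.961 to 0.986, against 34.9 to 35.0 between genotypes. Since the variance was near 2 times the mean before the division, a value near 1 after it follows and is no separate support. With the even counts and the single index and lane, the 3 were counted as parts of 1 library. So n is 1 per genotype and no difference has a replicate check. The effect of the genotype cannot be told apart from that of the clone, the library or the lane.

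Counted reads per sample were 9995980 to 10004948 in WT and 7143309 to 7146147 in Setd5+/-. Setd5 had 2498, 2749 and 2780 normalized counts in the WT parts and 2151, 1990 and 2055 in the mutant parts, a difference of −0.37 on the log2 scale (95% counting interval −0.44 to −0.31). Stem cell markers were present in both libraries, Sox2 at 3119 and 2732 and Nes at 2378 and 1951 normalized counts. The 10 listed stem cell markers summed to 76948 to 77088 in WT and 61538 to 62337 in Setd5+/-, with 2 called lower and 2 called higher. Mesenchymal markers summed to at most 14.3 normalized counts in any part and endothelial ones to at most 26.2, microglial markers to 78.6 to 119 in WT and 51.2 to 70.3 in Setd5+/-, and Lum and Cx3cr1 had 0 reads. Neuronal markers summed to 10232 to 10583 in WT and 12465 to 12591 in Setd5+/-, with 2 of 4 tested called lower (Dcx 248 against 26.2), and astrocyte markers to 788 to 808 and 1237 to 1397, with 3 of 4 called higher (Gfap 17.1 against 263). Oligodendrocyte lineage markers summed to 11626 to 11818 and 6848 to 7192, with 3 of 5 called lower. Proliferation markers summed to 5247 to 5422 and 6418 to 6546, but 3 of the 6 were lower and 3 higher, with 1 called lower and 0 called higher. The part of these markers in the ribosomal protein values was not tested, and in bulk RNA fewer cells of a type and less RNA per cell cannot be told apart.

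The sequences below show that a stretch of a ribosomal protein message can have more than 1 place in the genome. Each is a stretch of 60 coding bases across the border between 2 exons, with the upstream exon in lower case and the downstream exon in capitals, and each is also present without interruption in a processed pseudogene. They come from 5 members whose pseudogene row carried 2187 to 4021 normalized counts in WT, and were read from GENCODE M21 transcripts (GRCm38, the build called mm10).
Rpl13a: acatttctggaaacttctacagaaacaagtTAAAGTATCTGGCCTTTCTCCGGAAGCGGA
Rpl23: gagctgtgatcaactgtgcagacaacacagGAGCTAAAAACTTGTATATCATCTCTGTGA
Rps9: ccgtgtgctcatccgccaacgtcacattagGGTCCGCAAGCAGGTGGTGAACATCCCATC
Rpl14: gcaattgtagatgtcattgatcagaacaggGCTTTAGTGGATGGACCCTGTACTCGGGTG
Rpl10a: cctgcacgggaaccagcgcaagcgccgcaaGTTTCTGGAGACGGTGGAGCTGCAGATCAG

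In Rpl13a both parts of the stretch lie apart on the minus strand, in exon 3 at chr7:45127209-45127238 and exon 4 at chr7:45127063-45127092, whereas the pseudogene Gm11478 holds all 60 bases at chr11:86630855-86630914. The Rpl23 stretch (exons 2 and 3, chr11:97781806-97781835 and chr11:97781433-97781462, minus strand) is whole in Gm9794 at chr6:66875617-66875676. That of Rps9 (exons 4 and 5, chr7:3705890-3705919 and chr7:3706651-3706680, plus strand) is whole in Gm5905 at chr7:141178033-141178092. The Rpl14 stretch (exons 2 and 3, chr9:120572168-120572197 and chr9:120572768-120572797, plus strand) is whole in Rpl14-ps1 at chr7:45325040-45325099, and that of Rpl10a (exons 2 and 3, chr17:28328856-28328885 and chr17:28328967-28328996, plus strand) in Rpl10a-ps1 at chr1:64994495-64994554. The reads were aligned with Bowtie2, a program that does not split a read over an intron; how the authors treated reads with several matches is not given in the sources used here.

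Most ribosomal protein genes carried few reads on their own row. All members together took 0.275% to 0.277% of the counted reads in the WT parts and 0.247% to 0.255% in the mutant parts. In WT the level per kilobase of the principal transcript ran from 15.5 to 5116 normalized counts over the 77 tested members, with a median of 146.

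Among the highest levels per kilobase in WT were those of Rpl8 (5116), Rpl22 (2369) and Rps15 (1494). Rpl8, a 60S protein near the catalytic centre, lies at chr15:76904078-76906314. It had 4353, 4269 and 4440 normalized counts in the WT parts and 4728, 4631 and 4933 in the mutant parts. The parts did not overlap and all mutant values were higher, but the log2 fold change was only 0.13 (0.08 to 0.18). Rpl22, an RNA-binding 60S protein, had 1102, 1115 and 1151 against 1114, 1065 and 1080, and its parts overlapped. Rps15, which sits in the head of the small subunit, had 731, 746 and 764 against 665, 604 and 664, a log2 fold change of −0.21 (−0.34 to −0.09) with no overlap.

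The lowest levels per kilobase among tested members were those of Rpl35 (15.5), Rps16 (24.6) and Rpl29 (26.5). Rps16, a 40S protein, had 28.2, 28.1 and 25.7 normalized counts in WT and 15.5, 27.4 and 10.7 in Setd5+/-, and the parts overlapped. Rpl29, a 60S protein, had 15.8, 13.2 and 17.4 against 17.9, 16.7 and 20.3, which also overlapped. A member of the same particle could thus be listed 331-fold below another in the same library, or 124-fold with the reads of near-identical copies elsewhere in the genome added to each. The highest summed level is that of Rplp2, and 2250 of its 2314 normalized counts are the whole row of Wdr89, a protein-coding gene.

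**Figure D1:**
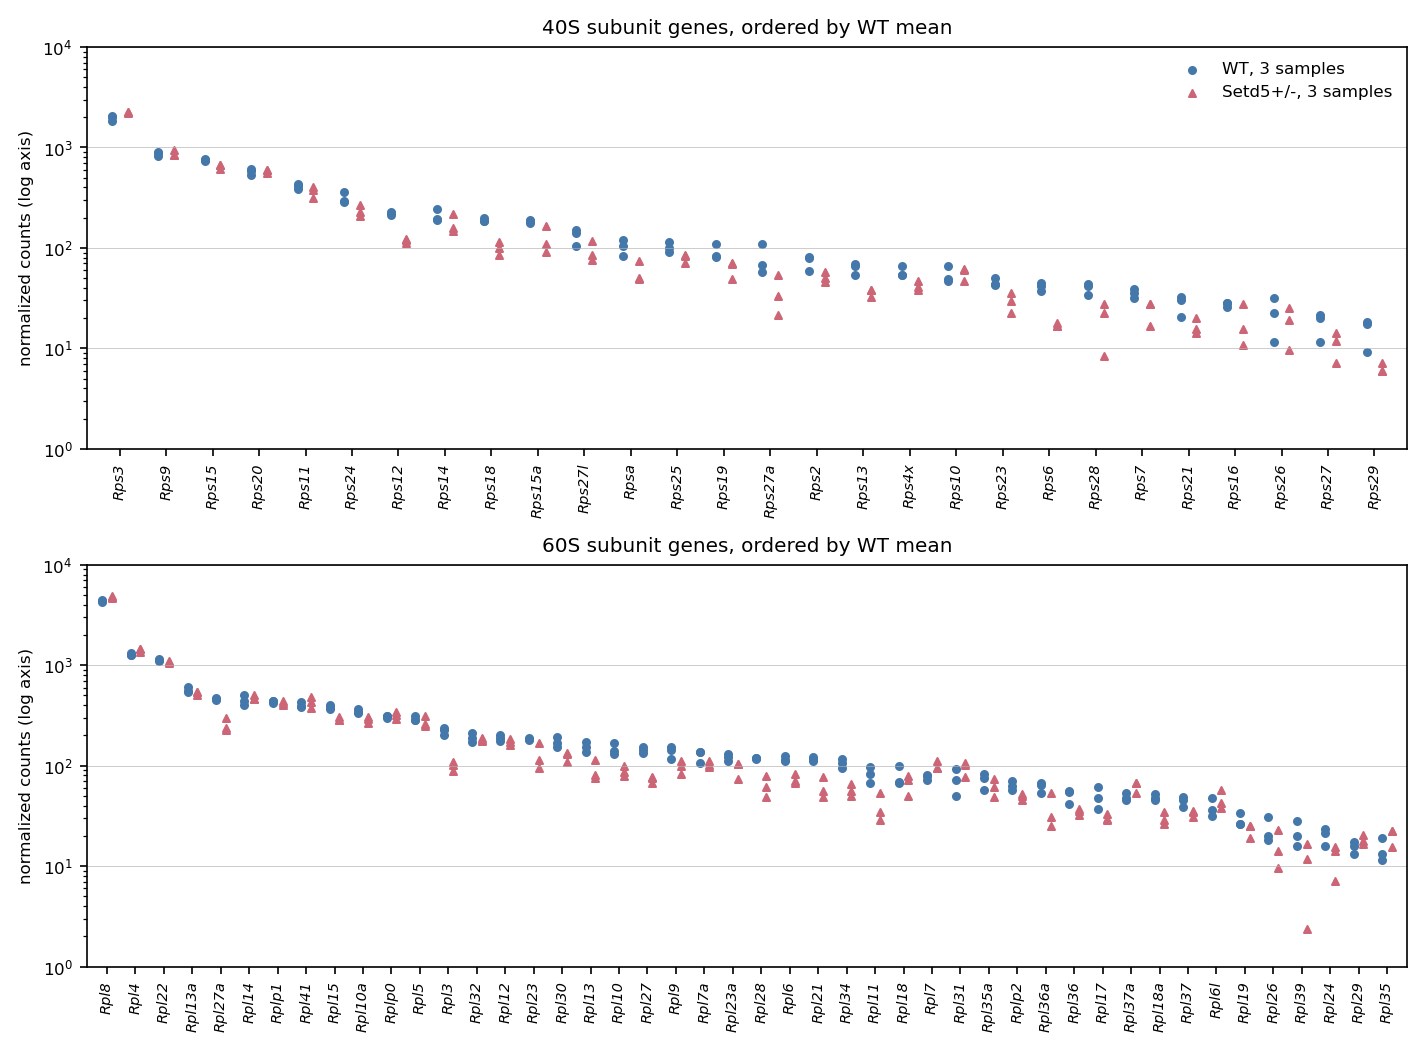
Normalized counts (log axis) of 74 tested ribosomal protein genes in the 3 WT (circles) and 3 Setd5+/- (triangles) samples, for the 40S subunit above and the 60S subunit below, ordered by the WT mean. Rpl8, Rps3, Rpl4 and Rpl22 are among the highest, with the genotypes close together, whereas many genes with lower counts have triangles below their circles.

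On their own rows, ribosomal protein genes were lower in Setd5+/- NSCs. A gene was called when its fold change was at least 1.5 and its 95% counting interval, which covers counting error only, did not include 0. By this rule 23 of the 77 tested members were lower, 29.9%, against 14.4% of all 16266 tested genes, and 0 were higher, against 18.4% of all tested genes. Among the 805 other tested protein-coding genes with a transcript under 1000 bases, 21.7% were called lower and 12.3% higher. At a smaller threshold, a log2 change of 0.32, 35 were lower and 2 higher, against 24.6% and 26.3% of all tested genes. The median log2 fold change of the members was −0.46, with 62 below 0 and 15 above, and over all tested genes it was −0.02.

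Genes of both subunits were among those called lower. The 31 tested 40S members had a median log2 fold change of −0.55, with 9 called lower, and the 46 tested 60S members one of −0.37, with 14 called lower. The difference between the subunits was not tested. The range was −1.23 to 0.21 in the 40S set and −1.14 to 0.44 in the 60S set.

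The largest falls were in genes with at most 238 normalized counts in any part. Rps6, the 40S protein that S6 kinases phosphorylate (ENSMUSG00000028495, chr4:86854660-86857412), had 37.3, 42.2 and 44.7 normalized counts in WT and 16.7, 16.7 and 17.9 in Setd5+/-. It was lower in all mutant parts, by 2.35-fold (log2 fold change −1.23, −1.91 to −0.55). Rpl3, a 60S protein near the peptidyl transferase centre (ENSMUSG00000060036, chr15:80077791-80091868), had 202, 226 and 238 against 110, 89.3 and 102, with no overlap, a log2 fold change of −1.14 (−1.42 to −0.85). Rps29, a small zinc-binding 40S protein, had 18.2, 17.4 and 9.11 against 7.15, 5.95 and 5.96. Its parts did not overlap, but with 54 and 16 reads in all its interval (−2.23 to 0.01) included 0 and it was not called.

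Rps27a, made as a fusion with ubiquitin, had 58.0, 67.8 and 108 normalized counts in WT and 53.6, 33.3 and 21.4 in Setd5+/-. The mutant parts were all lower, although the parts of each library spread widely, and the log2 fold change was −1.09 (−1.57 to −0.62). Rpl11, which with Rpl5 and 5S rRNA forms a particle that can bind Mdm2, had 68.0, 83.6 and 97.7 against 28.6, 34.5 and 53.6. It was lower in all mutant parts, with a log2 fold change of −1.08 (−1.53 to −0.62).

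None of the 4 largest positive values passed the rule. Rpl35, a 60S protein by the exit tunnel, had 13.3, 11.6 and 19.1 normalized counts in WT and 15.5, 22.6 and 22.6 in Setd5+/-, and its parts overlapped (log2 fold change 0.44, −0.33 to 1.22). Rpl31 had 49.8, 72.8 and 93.6 against 101, 77.4 and 106, with overlap, and Rpl7 had 72.1, 78.6 and 80.3 against 94.2, 111 and 94.1, without overlap. Their log2 fold changes were 0.39 and 0.37. Rpl37a, a zinc-binding 60S protein, had 45.6, 53.8 and 47.2 against 66.7, 67.9 and 53.6, with the lowest mutant part below the highest WT part (0.35, −0.08 to 0.79).

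Rpl31, Rpl7 and Rpl37a are the 3 tested members on chromosome 1, and their values lay between 0.35 and 0.39. The other 1041 tested genes of chromosome 1 were higher as a group, with a median of 0.53 and 45.7% called higher. The 74 tested members on other chromosomes had a median of −0.49, and 23 of them were called lower. This is 31.1%, against 14.9% of the other tested genes outside chromosome 1. On the X chromosome all 4 tested members were below 0. Rpl10, a late-joining 60S protein, had 129, 167 and 142 normalized counts in WT and 78.7, 100.03 and 87.0 in Setd5+/-, with no overlap, and was called lower (−0.72, −1.03 to −0.40). Rpl36a had 53.9, 67.0 and 63.8 against 25.0, 31.0 and 53.6, without overlap, and was called lower (−0.74), but not with Setd5+/- replicate 1 left out (−0.53). Rpl39 had 28.2, 15.7 and 19.9 against 16.7, 11.9 and 2.38, and its call (−0.98) was lost at a pseudocount of 5 (−0.78) and when WT replicate 1 (−0.73), Setd5+/- replicate 2 (−1.08) or Setd5+/- replicate 3 (−0.54) was left out. The 40S gene Rps4x had 65.5, 53.8 and 53.8 against 46.5, 38.1 and 40.5 normalized counts, with no overlap (−0.46, −0.93 to 0.01). The other 631 tested X-linked genes had a median of −0.04, with 15.1% called lower and 15.1% higher. With the reads of near-identical copies added, Rpl36a had −0.04, Rpl39 −0.01 and Rps4x −0.05, and none of these was called. Their own rows held 5.42%, 16.9% and 6.67% of the sums in WT. Rpl10 with its copies had −0.72 and was called lower.

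**Figure D2:**
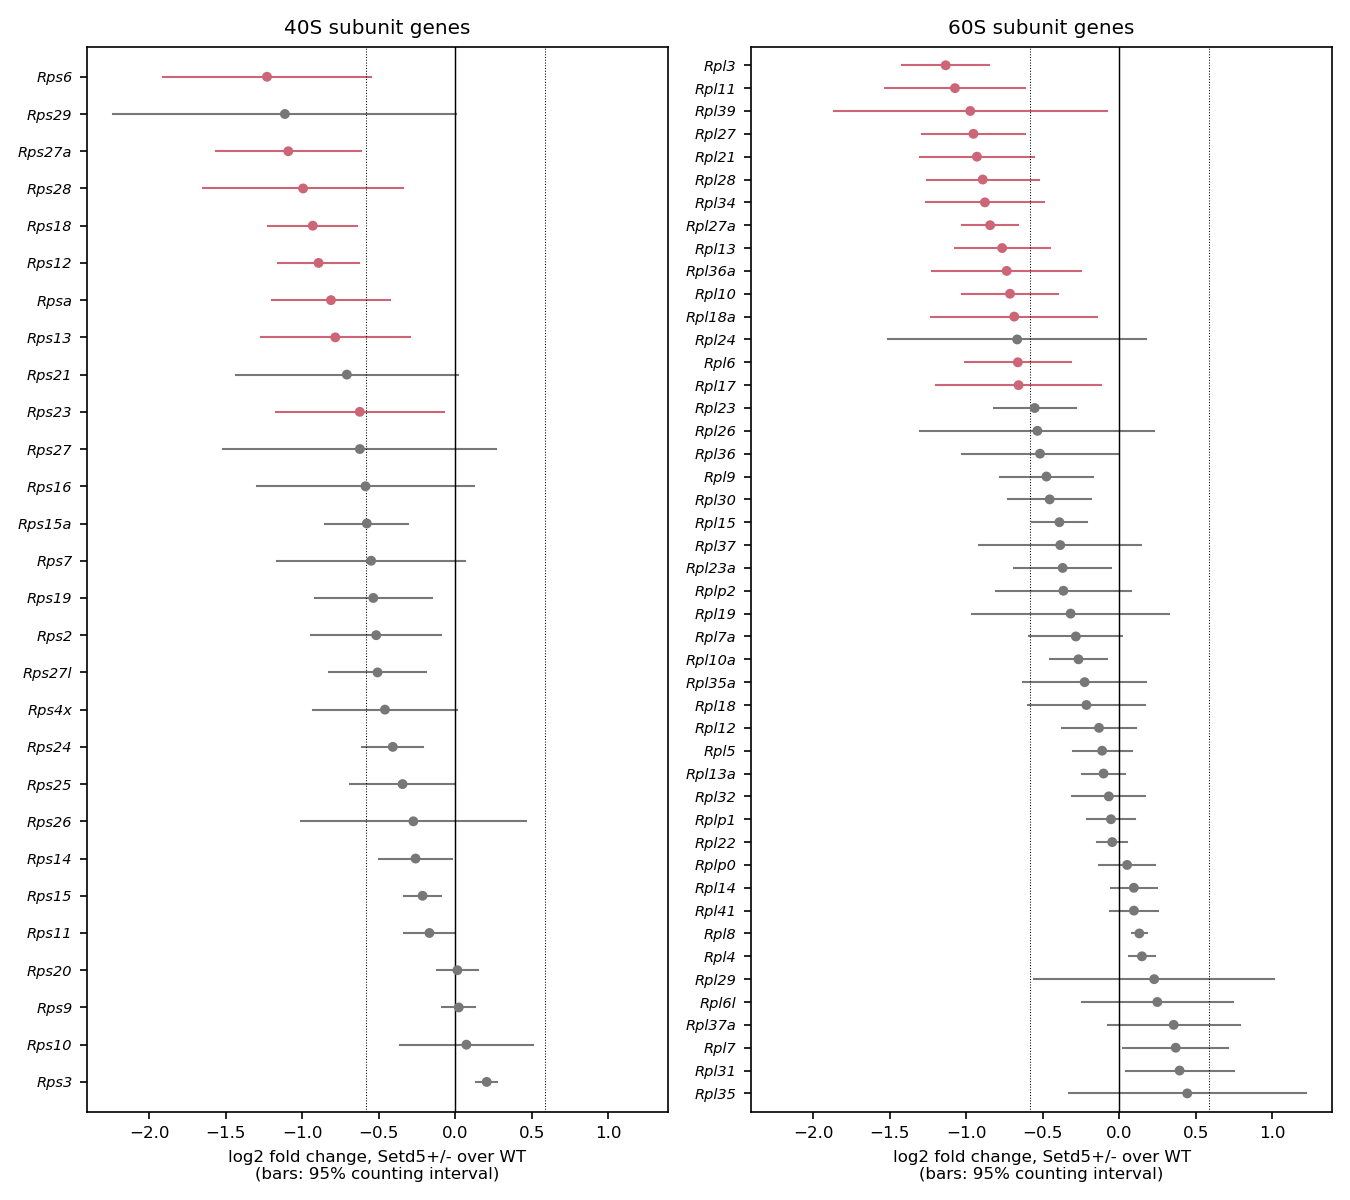
Log2 fold change (Setd5+/- over WT) of 74 tested members with their 95% counting intervals, 40S genes left and 60S genes right. Red marks 22 genes called lower, dotted lines mark a fold of 1.5, and no gene drawn reaches the right-hand dotted line.

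The fold changes differed with the level of the gene. Members were split into 3 groups by their mean over all 6 samples. The 25 lowest had a median log2 fold change of −0.62 with 9 called lower, the 27 in the middle −0.52 with 11 called lower, and the 25 highest −0.11 with 3 called lower. These are 36.0%, 40.7% and 12% of the groups, against 15.4%, 17.8% and 12.4% of the other tested genes in the same level ranges, whose medians were 0.08, −0.06 and −0.03. The share called lower among the highest members was thus near that of other genes. Those 3 were Rpl3, Rpl27a and Rps12, named after their values were seen. Short messages were also lower in the library as a whole. The 805 other tested protein-coding genes with a transcript under 1000 bases had a median of −0.18, against 0.00 for the 11609 longer ones. Of the short genes 21.7% were called lower, against 13.9% of the longer ones, 14.4% of all tested genes and 29.9% of the members. The part of length in the members' values was not tested.

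A near-identical copy, at 95% identity or more over at least 80% of the coding sequence, was annotated for 74 of the 80 members with a coding transcript. Summed over the copies that could be assigned to a member, 534 copy rows in the table held 52638 normalized counts in WT, against 22866 on the members' own rows. In 47 members the copies held more than the gene itself. Rps16 had 27.3 normalized counts on its own row and 1586 on its copies in WT, so its own row held 1.69% of the sum. For Rps6 these values were 41.4 and 809, for Rpl3 222 and 894, and for Rpl23 185 and 3861. Which of these rows the reads came from cannot be told apart where the sequences are the same.

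The copy rows as a set lay near 0. Of 85 copy rows with enough counts to be tested, 1 was called lower, 0 were called higher, and the median log2 fold change was 0.05. The sum of all copy rows was 54682 normalized counts in Setd5+/- against 52638 in WT, a log2 change of 0.05, whereas the members' own rows summed to 21312 against 22866, a log2 change of −0.10. Rps6-ps4, a perfect copy of the Rps6 coding sequence, had 804 in WT and 926 in Setd5+/- (0.20, 0.09 to 0.31). Rpl3-ps1 had 888 and 1291 (0.54, 0.44 to 0.64), opposite in sign to Rpl3. The row that carried most reads, Gm5835, a copy of Rpl4, had 4491 and 5138. It lies on chromosome 1, where other tested genes were higher as a group.

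When the reads of each member and its copies were added, a sum chosen after the data had been seen, fewer genes were lower. The summed rows were tested for 78 members, since Rpl38 then passed the filter. Their median log2 fold change was −0.08, 8 were called lower and 0 higher. These 8 are 10.3% of the summed rows, below the 14.4% of all tested genes called lower. For Rps6 the summed value was 851 in WT and 943 in Setd5+/- (0.15, 0.04 to 0.26), for Rpl3 1116 and 1392 (0.32, 0.23 to 0.41), and for Rps29 1466 and 1264 (−0.21, −0.30 to −0.13). Rps6 and Rpl3 thus changed sign with the copies. So did other members, among them Rpl6 (from −0.66 to 0.13) and Rps23 (from −0.62 to 0.06), both called lower on their own rows. Of the 78 summed rows, 49 were below 0 and 29 above. The median level per kilobase rose from 146 to 624 normalized counts in WT, and 45 of 77 members, against 11 on their own rows, reached 500.

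The 8 genes called lower with their copies included were Rpl27, Rps12, Rpl28, Rpl13, Rps27a, Rpl10, Rpl34 and Rpl27a. These are 6 proteins of the large and 2 of the small subunit. Rpl27 had 143, 154 and 133 normalized counts in WT and 66.7, 76.2 and 77.4 in Setd5+/- on its own row, with no overlap, and its copies added 0.55 in WT. Its summed log2 fold change was −0.95 (−1.29 to −0.62). Rps12, whose 22 annotated copies held 7.45 in WT, had 230, 221 and 214 against 120, 112 and 124, with no overlap, and a summed value of −0.89 (−1.16 to −0.63). Rpl27a, the most abundant of them, had 462, 468 and 446 against 237, 227 and 300.2, again with all mutant parts lower (summed −0.62, −0.77 to −0.48).

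Few tested members were without a copy. At 95% identity there were 4, among them Rpl8, Rps3 and Rps27l, and 0 of them were called in either direction. Their median log2 fold change was −0.01, with 2 below 0 and 2 above, and Rps27l, at −0.51, was further from 0 than the median of all members. Rps3, at the messenger RNA entry site, had 2044, 1987 and 1818 normalized counts in WT and 2263, 2208 and 2274 in Setd5+/-, with no overlap, a log2 fold change of 0.21 (0.14 to 0.28). When only copies of at least 98% identity were considered, 12 tested members were without one, and their median was −0.11 with 0 called, while the 64 with one had a median of −0.54 with 23 called lower. The sets also differed in level, with WT medians of 807 and 80.6 normalized counts, and level and copies cannot be told apart here. Members were also split by the share of 100-base windows of the transcript that lie in 1 exon and in no other annotated gene. The 12 tested members with at least 50% such windows had a median of −0.48, with 4 called lower (33.3%). The 32 with 20 to 50% had −0.19 (7 called lower) and the 32 under 20% had −0.56 (12 called lower). The difference was not tested.

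**Figure D3:**
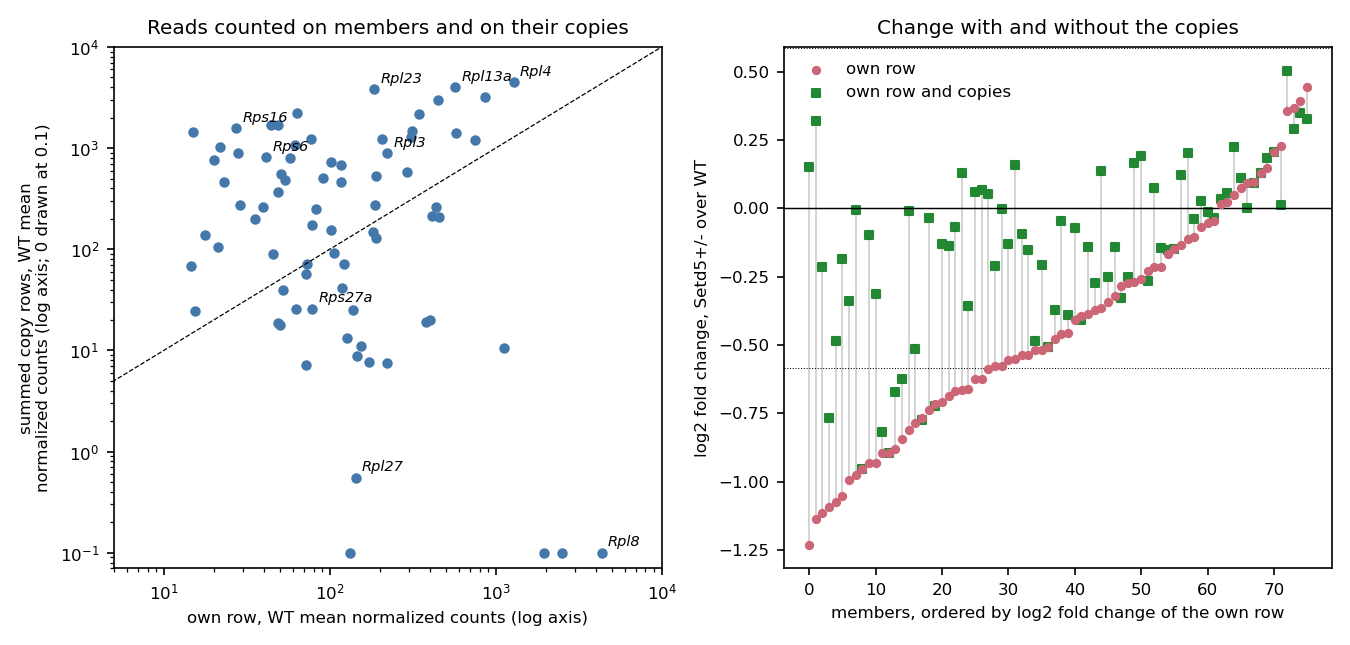
Left, mean normalized counts in WT (log axes) on a member's own row against the sum of its near-identical copies, with equality as the dashed line and 0 drawn at 0.1. Right, log2 fold change of each member on its own row (circles) and with its copies added (squares), with dotted lines at a fold of 1.5. In 59 of the 72 tested members with copy rows the square lies nearer 0 than the circle. Copy rows as a set lay near 0 and held more counts than own rows, so such a move is largely set by the sum itself.

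The stalk of the large subunit, which recruits the elongation factors, is built of Rplp0, Rplp1 and Rplp2. Rplp0 had 301, 312 and 312 normalized counts in WT and 341, 323 and 294 in Setd5+/-, and Rplp1 444, 425 and 441 against 421, 438 and 403. The parts of both overlapped, with log2 fold changes of 0.05 and −0.06. Rplp2 had 57.2, 71.1 and 62.9 against 45.3, 50.02 and 52.4, without overlap but with an interval that included 0 (−0.37, −0.81 to 0.07). Its near-identical stretch lies in Wdr89, a protein-coding gene with 2250 and 2492 normalized counts.

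Rpl5 and Rpl11, the proteins of the 5S particle, differed on their own rows. Rpl5 had 311, 286 and 286 normalized counts in WT and 249, 310 and 257 in Setd5+/-, and its parts overlapped (−0.11, −0.31 to 0.08), whereas Rpl11 was lower by 2.11-fold. With their copies the values were 0.20 for Rpl5 and −0.49 for Rpl11.

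A partial list of 9 members was taken from the genes whose human counterparts are mutated in Diamond-Blackfan anaemia, a failure of red cell production. Of these, 8 had values below 0 and 1, Rpl11, was called lower, which is 11.1% against 14.4% of all tested genes. Their median was −0.41, near the −0.46 of all members. Rpl27 and Rps28, also mutated in the anaemia but outside the list and named after their values were seen, were called lower (−0.95 and −0.99). With copies added Rpl27 kept its call (−0.95) and Rps28 lost it (−0.34). Rps19, the most often mutated of them, had 109, 81.9 and 82.8 normalized counts against 70.3, 69.1 and 48.8, with no overlap (−0.54, −0.92 to −0.15). Rps24 had 285, 290 and 363 against 206, 230 and 270, also without overlap (−0.41). Rps7, Rps26, Rpl35a and Rpl5 had log2 fold changes between −0.55 and −0.11, and Rps10 one of 0.07. With copies added, Rps19 had −0.15, Rps24 −0.07, Rps7 0.16, Rps26 −0.25 and Rpl35a −0.27.

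Paralogs with an l suffix were mostly near 0 counts. Rpl10l, a testis paralog of Rpl10, and Rps4l had 0 reads in both libraries, and 3 read pairs per library, the most that a count of 0 allows, would be a mean of 1.66 normalized counts in WT and 2.38 in the mutant. Rpl39l had 2 reads in WT and 0 in Setd5+/-, and Rpl3l, the muscle paralog of Rpl3, had 3 and 2, so neither has a fold change. The partners Rpl10, Rpl39, Rpl3 and Rps4x carried 57.7 to 222 normalized counts in WT except Rpl39, with 21.3. Rps27l, a p53-induced paralog, was higher than Rps27, with 132 against 17.7 normalized counts in WT and, per kilobase, 264 against 51.2. The order turned when copies were added, with 155 normalized counts for Rps27, or 448 per kilobase, and no copy of Rps27l. The log2 fold change of Rps27l was −0.51 (−0.82 to −0.19), with 151, 141 and 104 in WT and 84.6, 75.02 and 118 in Setd5+/-, and its parts overlapped. Rpl6l, annotated as a processed pseudogene like Rps4l, had 38.6 and 46.1. Rpl38, the fifth member under the filter, had 9.94 and 7.54.

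The starts of the messages were examined because members moved together on their own rows. A C within 5 bases of an annotated start, followed by at least 4 pyrimidines, was searched on the sense strand of RefSeq start sites (GRCm38.p6). It was present in 28 of the 60 members with a listed start, 46.7%. The share was 21.2% of all genes with such sites and 23.7% of the tested genes that are not members. The 4 windows below, of 12 bases before and 18 from the start, show it in capitals. They are of the member with the largest fall, the one with the largest value above 0 and 2 other 60S members. These 2 were picked from the members that hold the run.
Rps6: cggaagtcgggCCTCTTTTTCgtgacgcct
Rpl35: ccccgccCTTTCCTCTTTCTCTCgaaccag
Rpl15: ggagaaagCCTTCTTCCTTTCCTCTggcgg
Rpl27a: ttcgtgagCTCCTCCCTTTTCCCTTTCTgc

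They lie at chr4:86857350-86857379, chr2:39005114-39005143 and chr14:18270969-18270998, all on the minus strand, and at chr7:109519183-109519212 on the plus strand. Tested members with such a run had a median log2 fold change of −0.39 (27 genes, 7 called lower) and those without it one of −0.54 (29 genes, 10 called lower). The shares called lower were 25.9% and 34.5%, against 14.4% of all tested genes. The run is a match of letters in a window, and Rps6 and Rpl35, at opposite ends of the order, both hold it.

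The remaining machinery of translation was described from 8 lists. The shares over all tested genes to set beside their counts are 14.4% called lower and 18.4% called higher. Of 39 tested genes for nucleolar rRNA processing, 9 were called lower and 1 higher, and the median was −0.40 on the log2 scale. Nolc1, a chaperone of small nucleolar particles, had 690, 746 and 668 normalized counts in WT and 271, 335 and 295 in Setd5+/-, with no overlap (−1.22, −1.38 to −1.06). Wdr12, a 60S maturation factor on chromosome 1, was higher in all mutant parts, with 129 against 252 in the mean (0.96). Of 15 tested genes of RNA polymerase I and its factors, which make the rRNA precursor, 3 were called lower and 0 higher (median −0.14). Polr1b, the second largest subunit, had 258 and 133 (−0.95), and Taf1a, on chromosome 1, had 127 and 166 (0.39).

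Of 10 tested elongation factors, 3 were called lower and 1 higher (median −0.27). Tpt1, a translation-linked protein with a TOP message, had 161, 132 and 134 normalized counts in WT and 44.1, 38.1 and 46.5 in Setd5+/-, with no overlap (−1.71, −2.12 to −1.29). Eef1b2, the exchange factor for eEF1A, lies on chromosome 1 and had 2044 and 3469 (0.76). Of 38 initiation factors, 3 were called lower and 2 higher, with a median of −0.09, and the ends were Eif4a1, an RNA helicase (−0.87), and Eif2s2, eIF2 beta (0.80). Copies of these genes were not searched.

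Among 18 tested regulators of ribosome output, 1 was called lower and 1 higher (median −0.15). Myc, a transcription factor that drives ribosome production, had 963, 879 and 915 normalized counts in WT and 242, 214 and 216 in Setd5+/-. All mutant parts were lower, by a log2 fold change of −2.03 (−2.21 to −1.85). Eif4ebp1, the eIF4E-binding repressor regulated by mTORC1, had 111, 97.6 and 117 against 583, 660 and 579, with no overlap in the opposite direction (2.47, 2.25 to 2.70).

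Of 10 RPS6 kinase genes, 1 was called lower and 2 higher, with a median of 0.34. Rps6ka6, an X-linked kinase, had 236, 234 and 247 normalized counts in WT and 2.38, 2.38 and 0 in Setd5+/-. Its mutant level rests on 4 reads and lies under the limit that 0 counts allow, so no fold is given. Rps6ka5 had 123 and 251 (1.02). Of 8 snoRNA host RNAs, which also start with TOP motifs, 0 were called, at a median of 0.03, with the ends at Snhg3 (−0.42) and Snhg5 (0.45).

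Ribosomal proteins that the name rule leaves out were mixed. Of 6 tested, 1 was called lower and 0 higher, with a median of −0.12. Rack1, a 40S scaffold, had 5198, 5014 and 5064 normalized counts in WT and 5660, 5767 and 5844 in Setd5+/-, all higher but by 0.18 on the log2 scale (0.13 to 0.22). Rpl22l1, the paralog of Rpl22, had 66.3, 49.6 and 48.0 against 23.8, 31.0 and 40.5, with no overlap (−0.76, −1.29 to −0.24). Rps3a1, a 40S gene whose name falls outside the rule and that was chosen after its values were seen, had 50.2 and 26.2 (−0.91).

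**Figure D4:**
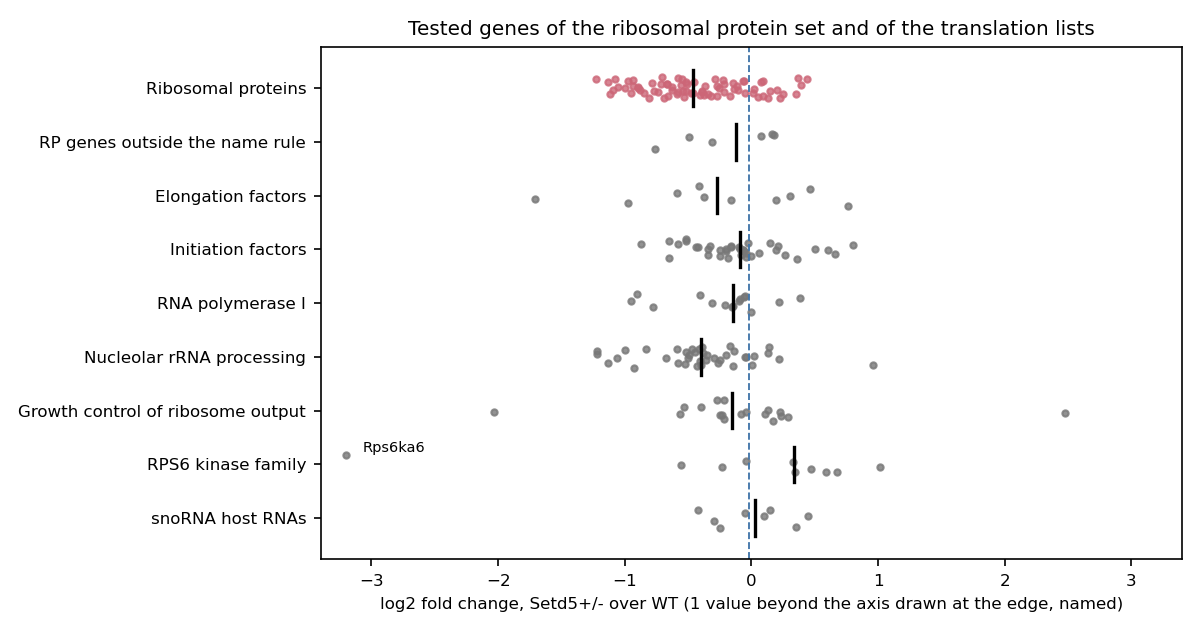
Log2 fold change (Setd5+/- over WT) of each tested gene, for the 77 ribosomal protein genes (red) and 8 lists of translation genes (grey). Black bars are list medians and the dashed line is the median of all 16266 tested genes; Rps6ka6 lies beyond the axis and is drawn at the left edge.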

How the data were processed

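TruSeq RNA libraries of total RNA were sequenced as read pairs. The authors trimmed reads with Trimmomatic, aligned them to mm10 with Bowtie2 and deposited normalized counts, the reads counted on each gene divided by the sample's DESeq2 size factor. The program that counted reads and its use of strand are not given in the sources used here. The deposited values had lost decimal points. These were restored as the smallest placement giving whole reads within 0.001, and in 1116 genes by the deposited mean. The procedure was tested on simulated data. Columns of the authors' DESeq2 comparison (fold changes and p-values) were not used.

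Genes that reached a mean of 10 normalized counts over the 6 samples were compared as log2((Setd5+/- mean + 1)/(WT mean + 1)). The 95% counting interval used the variance over the mean between the parts of a library, 1.95 in WT and 1.94 in Setd5+/-, and covers counting error only. A gene was called at a fold of at least 1.5 with an interval excluding 0. With 1 library per genotype there is no test between genotypes. Near-identical copies were searched with BLAST 2.17.0 in GENCODE M21 transcripts (95% identity, 80% of the coding sequence), and each was assigned to the member it matched best. Alternatives were other scalings, pseudocounts, filters and folds, samples left out, and limma 3.58.1 in R 4.3.3 with Benjamini-Hochberg adjustment.

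Named genes were Setd5, the 6 largest falls and 4 largest rises among tested members, the 4 highest and 3 lowest levels per kilobase, members on chromosomes 1 and X, l-suffix paralogs with their partners, stalk, 5S and Diamond-Blackfan members, members under the filter, and the ends of each list. Other genes were chosen after their values were seen. Members and lists were chosen with earlier results of these data known. A few members that this rule covers are not reported here and are left out of plots that name each gene.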

Additional observations from a re-analysis of the deposited data

How the results depend on the processing

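Of 909 recomputed values 2 reversed, Rps6 (0.15) and Rpl3 (0.32) with the reads of their near-identical copies added. Other members also changed sign with their copies, among them Rpl6 (from −0.66 to 0.13) and Rps23 (from −0.62 to 0.06). The 23 members called lower became 14 with a filter of 50 normalized counts, 5 at a fold of 2, 35 at a log2 change of 0.32, 15 with rows named as pseudogenes added and 8 with all near-identical copies added, and the 0 called higher became 2 at that size. Limma on the parts called 38 lower and 3 higher in the reads of the 2 libraries, and with the replicate block 37 and 4. It takes the parts of a library as replicates, which they are not. Except at the log2 change of 0.32, the share of all tested genes called under these alternatives is not given here. The counts of members called therefore have no background. Same-numbered samples share only a number, since their deviations correlated at −0.03 to 0.00. With each sample left out in turn, 0 to 1 members were higher (Rpl31, without WT replicate 3).

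The members' median log2 fold change of −0.46 became −0.31 with a filter of 50, −0.22 with rows named as pseudogenes, −0.083 with all copies (this and the 8 calls with copies were added after seeing the data) and −0.56 with upper-quartile scaling, and −0.46 to −0.39 with a sample left out. Upper-quartile scaling, a log2 shift of −0.11 of every gene, gave −0.65 (40S), −0.47 (60S), −0.60 (members with copies), −0.11 (without copies), −0.37 (elongation), −0.20 (initiation), −0.25 (RNA polymerase I), −0.50 (nucleolar), −0.26 (growth control) and −0.080 (snoRNA hosts). It also called 2 ribosomal protein genes outside the name rule and 4 growth control genes. The filter of 50 gave medians of −0.38 (40S), −0.28 (60S) and −0.36 (with copies), and 0 calls outside the name rule. A pseudocount of 5 gave −0.45 for members with copies, and 98% identity gave −0.11 for those without. Leaving out a sample gave −0.60 to −0.45 (40S), −0.40 to −0.32 (60S), −0.49 to −0.41 (with copies) and −0.15 to −0.065 (initiation, 3 to 6 called). The initiation median was −0.13 with scaling to total reads and −0.053 with the ratio outside chromosome 1. Without a filter, medians were −0.31 outside the name rule and −0.083 for growth control.

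At a fold of 2, calls fell to 0 (outside the name rule, initiation, RNA polymerase I), 1 (elongation) and 5 (nucleolar). At a log2 change of 0.32 they were 2, 7, 13, 5, 24, 5, 7 and 3 for the lists outside the name rule, elongation, initiation, RNA polymerase I, nucleolar, growth control, RPS6 kinases and snoRNA hosts. Limma called 3, 9, 24, 7, 27, 13, 8 and 4 of them, and with the replicate block 3, 9, 23, 7, 27, 13, 8 and 4. The limma counts again have no share of all tested genes beside them. Members took 0.287% of reads in WT and 0.261% in Setd5+/- without mitochondrially encoded genes. Of 568 values for single named genes, 17 gained and 9 lost a call without a change of sign. Low reads limit 5 of the 77 calls: Rps29, Rps21, Rpl24, Rps27 and Rps16 passed the fold but not the interval.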

Other observations

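Within the list for nucleolar rRNA processing, the proteins of the small nucleolar particles that modify rRNA were looked at after their values had been seen. Of the H/ACA core, which guides pseudouridylation, Gar1 fell from 115 normalized counts in WT to 54.4 in the mutant (log2 fold change −1.06) and Nop10 from 243 to 121, and both were called lower, whereas Nhp2 (−0.47) and the enzyme Dkc1 (−0.20) were not. Of the C/D core, which guides methylation, the methyltransferase Fbl had 41.1 and 18.3 and was called lower (−1.13), Snu13 and Nop56 had −0.40 and −0.26, and Nop58, on chromosome 1, had 0.14. Among the subunits of the initiation factor eIF3, Eif3c was called higher, with 1589 and 2422 (0.61), and the other listed subunits were not called in either direction.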
